A study of Mus musculus with 2 samples.

Results

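Ligands of the bone morphogenetic protein (BMP) family and the Id genes they are known to induce were followed through the reversion of primed mouse cells to a naive state. The 10 genes were chosen by name among the 33963 genes of the count table: the ligands Bmp4, Bmp2 and Bmp7, the receptor Bmpr1a, the targets Id1, Id2, Id3 and Id4, and the inhibitors Smad6 and Bambi. All 10 had reads in every population. In all 4 Id genes, the Dppa5a-low cells of day 16 stood above every other population, with 330 reads of Id1 per 1000000 against 105 in the next. Naive cells, reverted cells and expanded reverted cells lay closer together. For Id2 the reverted cells were still above naive and expanded cells beyond counting error. For Id4 the primed and day 8 cells lay within the same range.

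BMP ligands bind type I and type II receptor kinases, which phosphorylate SMAD1, SMAD5 and SMAD9. These enter the nucleus with SMAD4 and switch on the Id genes, whose products are helix-loop-helix proteins that cannot bind DNA and that sequester the E proteins. Smad6 and Bambi are themselves induced by the pathway and dampen it, Smad6 inside the cell and Bambi as a pseudoreceptor at the membrane. In mouse embryonic stem cells, BMP4 together with leukemia inhibitory factor (LIF) is known to hold back differentiation through Id proteins, and in the epiblast BMP4 is known for inducing mesoderm and germ cells.

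Naive mESCs (line Rex1-GFP) and primed mEpiSCs (line Oct4GIP) were the untreated populations. Day 8 (d8) and day 16 (d16) cells had received AICAR, which activates AMP kinase, together with LIF. The last population, d16+10p, had then gone through 10 passages in 2iL, in which a pair of kinase inhibitors is joined with LIF. The strain on the labels is 129/Ola, and before reversion the primed cells were kept on feeder fibroblasts (MEF) with FGF2 and Activin A. The paper states that MEF were also needed through the 16 days of treatment. Feeders may therefore be among the d8 and d16 cells and were not told apart here. The naive and primed cells are different lines with different reporters, so that line and state cannot be told apart between them. A tag marked each population within 1 pooled library, so that there was 1 sample per population. No difference below therefore has a replicate check, no test was made, and all intervals are 95% intervals for counting error only. Reads were not collapsed to molecules, so the true uncertainty is wider.

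The table held 17720 cells and 307121033 reads, with 801 cells tagged as naive, 1826 as primed, 9627 as d8, 4315 as d16 and 1151 as d16+10p, and no cell barcode was shared between populations. The median number of reads per cell ranged from 10185 in d16 to 21551 in d16+10p. The d16 cells were split at 1000 CPM (reads per 1000000 reads) of Dppa5a, a gene of naive cells. This gave 1278 Dppa5a-high and 3037 Dppa5a-low cells. The nearest cells to the limit were at 1012 and 992 CPM, and 295 d16 cells lay between 500 and 2000 CPM. The tags did not mark pure populations. Of the naive cells 70.3%, of the primed 26.1%, of the d8 0.343%, of the d16 Dppa5a-low 2.14%, of the d16 Dppa5a-high 94.8% and of the d16+10p cells 81.5% lay in clusters with high Pou5f1 (Oct4), a gene that pluripotent cells share. The largest other clusters of primed-tagged cells were cluster 2, unnamed and led by Lefty1 and Fgf15, with 434 cells, and the fibroblast-like cluster 6 with 238. The values over all primed-tagged cells are given beside those of the 477 cells in Pou5f1-high clusters. Of these 477, 422 lay in the primed pluripotent-like cluster 12, but 53 lay in cluster 5 and 2 in cluster 7, both naive pluripotent-like. In those 53 cells Dppa5a was at 3183 CPM, so the 477 are not all primed-like. Dppa5a was at 2343 CPM in naive and 175 CPM in primed cells, and Zfp42 (Rex1) at 564 and 34.0 CPM.

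Stretches before the RefSeq start are shown for Id2 and Id4 and for the ligand Bmp4 because, between d8 and d16 Dppa5a-low cells, the Id genes were called higher and Bmp4 was not. Of the 10 genes, 6 had an entry in the RefSeq promoter table (GRCm38.p6). The stretches printed lie within the 250 bases before the RefSeq start, on the strand of the gene, and outside every exon of the GENCODE M21 annotation. For Id2 this left 89 of the 250 bases. They lie inside the gene as GENCODE annotates it (25093799 to 25097140, minus strand), and so not upstream of its annotated start. The window of Bmpr1a also lies inside its annotated gene. For Id3 no bases were left, since its window falls inside an annotated exon. Capitals mark GGCGCC, a palindromic element bound by SMAD1 and SMAD5.
Id2 (chr12:25096254-25096342, minus strand): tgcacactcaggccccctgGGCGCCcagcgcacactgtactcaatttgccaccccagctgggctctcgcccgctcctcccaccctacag
Id4 (chr13:48260866-48261115, plus strand): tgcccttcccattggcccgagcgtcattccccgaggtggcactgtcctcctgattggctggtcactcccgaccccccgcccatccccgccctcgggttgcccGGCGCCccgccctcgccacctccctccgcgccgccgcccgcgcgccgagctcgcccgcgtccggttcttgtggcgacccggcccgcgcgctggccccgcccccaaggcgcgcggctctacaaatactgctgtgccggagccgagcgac
Bmp4 (chr14:46390670-46390919, minus strand): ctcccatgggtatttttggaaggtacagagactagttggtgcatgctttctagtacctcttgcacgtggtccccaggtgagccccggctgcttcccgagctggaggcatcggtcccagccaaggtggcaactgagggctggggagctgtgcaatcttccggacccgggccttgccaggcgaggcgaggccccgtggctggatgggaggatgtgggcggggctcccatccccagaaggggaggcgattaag

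GGCGCC occurred once in the window of Id2 (starting 231 bases before the start), once in that of Id4 (148 bases before) and once in that of Bmpr1a (198 bases before), and was not among the letters of the windows of Id3, Smad6 and Bmp4. Of 32851 mouse promoter windows of this length, 9.59% hold it. The windows of the 6 genes were GC-rich, at 62.8 to 78.8% against a median of 52.4% over all windows. The shorter SMAD box, GTCT or its reverse complement AGAC, occurred 2 times in Id3, once each in Id2, Smad6 and Bmp4 and not in Id4 or Bmpr1a, and is present in 82.9% of all windows. These are matches of letters and not sites of binding.

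Among the ligands, Bmp4 (chromosome 14, 46383520 to 46390669, GRCm38) was highest at d8 and lowest in the naive and reverted cells. Its level was 11.5 CPM in naive cells, 17.0 in primed cells, 24.3 at d8, 21.5 in d16 Dppa5a-low, 9.58 in d16 Dppa5a-high and 8.73 CPM in d16+10p cells. The intervals of naive and d16 Dppa5a-high cells overlapped, as did those of d16 Dppa5a-high and d16+10p cells. The intervals of d8 (23.6 to 25.1) and d16 Dppa5a-low cells (20.0 to 23.1) lay above all of these. Bmp4 overlaps Gm15217 on the opposite strand in exons, and the counting is not described as using strand, so the reads of the pair cannot be told apart.

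Bmp2 (chromosome 2, 133552159 to 133562885), a close relative of Bmp4, had the same order of populations. It was at 21.3 CPM in naive cells, 36.7 in primed cells, 58.5 at d8, 41.8 in d16 Dppa5a-low, 17.4 in d16 Dppa5a-high and 16.5 CPM in d16+10p cells. Bmp7 (chromosome 2, 172868012 to 172940321), a ligand of the BMP5/6/7 subgroup, was at 25.5, 35.2, 40.3, 42.7, 23.0 and 21.4 CPM in the same order of populations. Its highest populations, d16 Dppa5a-low and d8, overlapped in their intervals. For all 3 ligands, the naive, d16 Dppa5a-high and d16+10p levels were the lowest of the populations.

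The receptor Bmpr1a (chromosome 14, 34410734 to 34503341), the type I receptor for BMP2 and BMP4, was highest in d16 Dppa5a-low cells. It was at 45.1 CPM in naive cells, 67.2 in primed cells, 72.5 at d8, 123 in d16 Dppa5a-low, 56.4 in d16 Dppa5a-high and 48.9 CPM in d16+10p cells. Only the intervals of naive and d16+10p cells overlapped. Bmpr1a overlaps Gm17110 on the opposite strand.

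Id1 (chromosome 2, 152736251 to 152737410), the best known early target of BMP signals, was at 54.5 CPM (51.1 to 58.1) in naive cells, 105 (101 to 109) in primed cells, 75.2 (73.9 to 76.4) at d8, 330 (324 to 336) in d16 Dppa5a-low, 58.0 (54.7 to 61.3) in d16 Dppa5a-high and 45.0 CPM (42.5 to 47.7) in d16+10p cells. The d16 Dppa5a-low cells were alone at this level, and naive and d16 Dppa5a-high cells did not differ beyond their counting error.

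Id2 (chromosome 12, 25093799 to 25097140), an Id gene also known for its roles in immune cells, was at 125, 221, 216, 682, 153 and 117 CPM in naive, primed, d8, d16 Dppa5a-low, d16 Dppa5a-high and d16+10p cells. Here primed and d8 overlapped, and naive and d16+10p overlapped. Id3 (chromosome 4, 136143497 to 136145755), which is often co-expressed with Id1, was at 209, 268, 258, 657, 212 and 188 CPM in the same order, so that its levels outside the d16 Dppa5a-low cells were spread over a narrow range.

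Id4 (chromosome 13, 48261228 to 48266026), known for its part in neural progenitors, was at 29.4, 37.0, 33.3, 144, 37.1 and 32.6 CPM in the same order of populations. Only the d16 Dppa5a-low cells stood apart. Id4 overlaps A330033J07Rik and Gm49291 on the opposite strand, and reads of these genes cannot be told apart.

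The inhibitors were low. Smad6 (chromosome 9, 63953076 to 64022059), which blocks the BMP receptors from within, ranged from 3.77 CPM in naive to 8.07 CPM (7.16 to 9.07) in d16 Dppa5a-low cells, the latter above the intervals of all others. Bambi, which lacks the kinase of a receptor, was at 16.4 CPM in naive cells, 24.8 in primed cells, 20.6 at d8, 25.6 in d16 Dppa5a-low, 14.2 in d16 Dppa5a-high and 13.2 CPM in d16+10p cells. The primed and d16 Dppa5a-low intervals overlapped. Bambi-ps1, a copy of Bambi that could share its reads, had 0 to 18 reads per population.

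**Figure D1:**
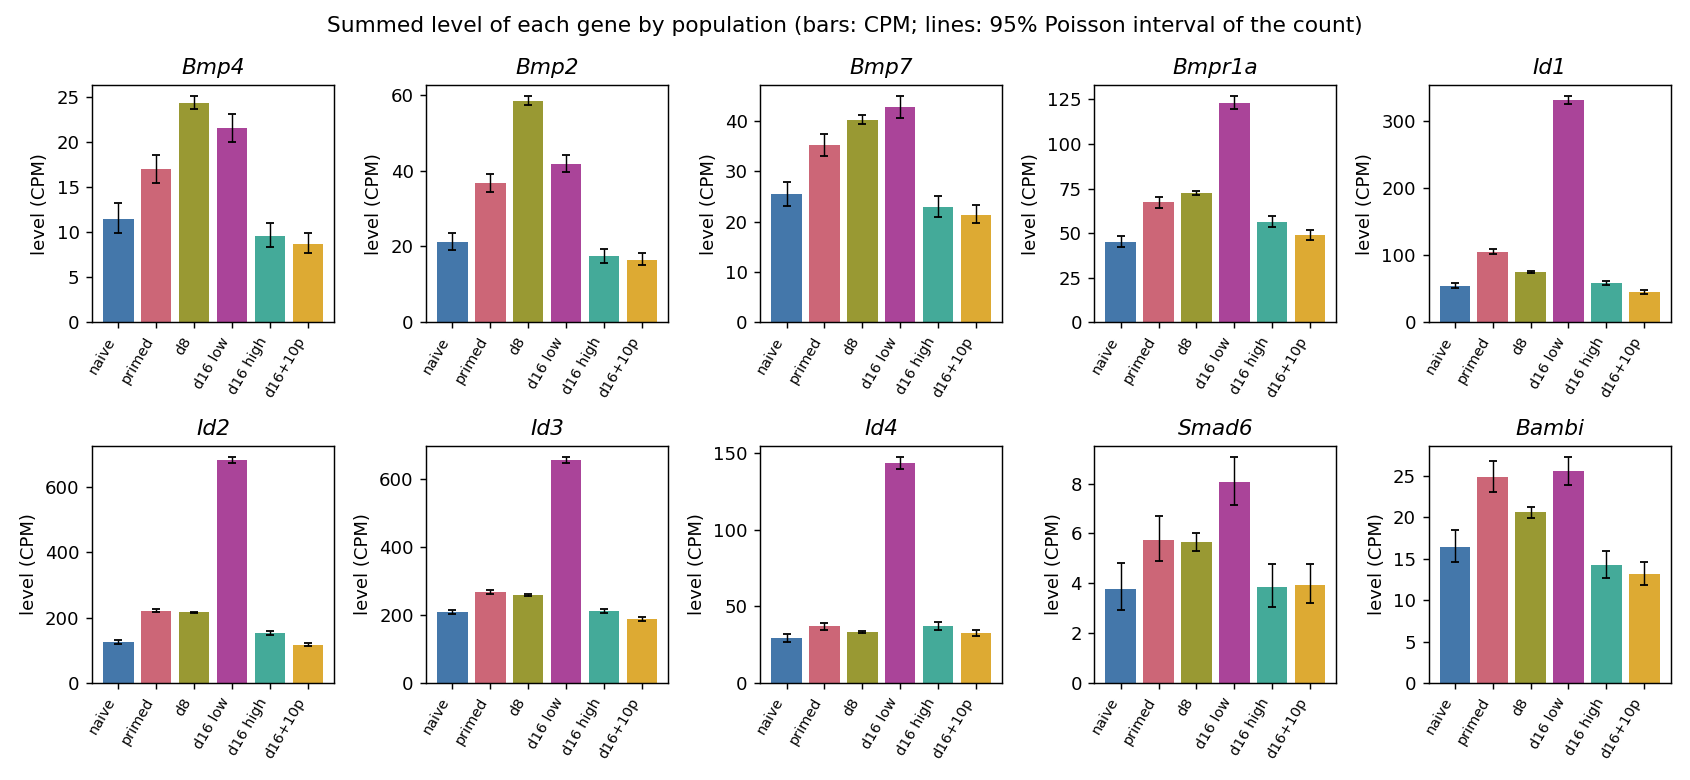
Level of each of the 10 genes (y axes, CPM, starting at 0 and different for each gene) in naive, primed, d8, d16 Dppa5a-low (d16 low), d16 Dppa5a-high (d16 high) and d16+10p cells; bars are summed levels of 1 sample each and lines 95% counting intervals. The Id genes and Bmpr1a peak in d16 Dppa5a-low cells, at 330 CPM for Id1 and 682 CPM for Id2, while Bmp4 and Bmp2 peak in d8 cells at 24.3 and 58.5 CPM.

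The comparisons were read by a fold rule. A gene was called where its level differed at least 2-fold (with 1 CPM added to each level) and reached 10 CPM in either population. The log2 ratios hold the added 1 CPM and their intervals do not. A ratio can therefore lie off the middle of its interval or outside it. Smad6 stayed under 10 CPM everywhere and was called in no comparison.

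The first comparison asked how primed cells differ from naive cells. Over all cells of the tags, 0 of 9 members tested were called higher in primed, against a background of 3.55% of 10549 genes, and 0 were called lower, against 4.69%. All 9 were nevertheless above naive beyond counting error, as were 4666 of the 10549 genes. Their median log2 ratio was 0.57, against 0.08 over all genes tested. The ratio was largest for Id1 (0.93, 0.84 to 1.05), Id2 (0.82) and Bmp2 (0.76).

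The values differed among cells of Pou5f1-high clusters, where several members were low enough for stray reads from other cells to matter. Marker genes were read in clusters taken to lack them, Lyz2 at a median of 0.112, Dppa5a at 0.131, T at 0.311, Col3a1 at 0.389 and Dcx at 0.441 of their level over all cells. The highest of these clusters exceeded the level over all cells for T (137 against 62.4 CPM) and Dcx (8.18 against 7.28 CPM). The values of T and Dcx may therefore hold reads that were not stray. In Pou5f1-high clusters, Bmp4 in primed (0.392) and naive (0.420), Bmp2 in primed (0.287) and naive (0.367), Bmp7 in primed (0.434) and Id1 (0.406) and Id2 (0.344) in naive cells lay within this range, and the part of stray reads in their ratios was not tested. Bmp4 was at 7.97 CPM in primed and 8.51 CPM in naive, a log2 ratio of -0.09 (-0.51 to 0.32). Bmp2 was at 13.2 and 17.0 CPM and Bmp7 at 15.8 and 21.2 CPM, both with fewer reads in primed beyond counting error. Id1 remained higher, at 69.9 against 41.4 CPM (0.74, 0.60 to 0.91), and so did Id2, at 165 against 86.5 CPM (0.92, 0.83 to 1.04). Id3, at 175 against 186 CPM, was within counting error, and Id4 was slightly lower, at 23.7 against 29.5 CPM. Bambi alone was called, at 31.5 CPM in primed and 14.7 CPM in naive cells (1.05, 0.84 to 1.35), where 4.27% of all genes were called higher. The Id genes thus did not share a direction in this comparison.

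The second comparison asked what changed by d8, when Pou5f1 had fallen from 203 CPM in primed to 56.8 CPM. Against all primed-tagged cells, 0 of 9 members were called higher (background 3.53%) and 0 lower (3.28%). Bmp4 (log2 ratio 0.50), Bmp2 (0.66), Bmp7 (0.19) and Bmpr1a (0.11) were above primed beyond counting error, and Id1 was below (-0.48, -0.54 to -0.42). Id2 was within counting error, and Id3 (-0.05), Id4 (-0.15) and Bambi (-0.26) were slightly below.

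Set against primed-tagged cells of Pou5f1-high clusters only, the d8 cells had more reads of all 3 ligands, whose primed levels here were in the range of stray reads. Bmp2 was at 58.5 against 13.2 CPM (2.06, 1.90 to 2.39), Bmp4 at 24.3 against 7.97 CPM and Bmp7 at 40.3 against 15.8 CPM (1.29, 1.13 to 1.57). These 3 of 9 members were called, where 13.8% of all genes were. Id1 (0.10) was then within counting error, Id2 (0.39), Id3 (0.56) and Id4 (0.47) were above primed, and Bambi was below (-0.59). Of the 38829 Id2 reads at d8, 17082 came from the 820 macrophage-like cells of cluster 8. Without these cells, an alternative added after the data had been seen, Id2 at d8 was at 133 CPM, a log2 ratio of -0.31 to the 165 CPM of primed-tagged cells in Pou5f1-high clusters and of -0.73 to all primed-tagged cells. The direction of Id2, Id3 and Id4 at d8 therefore depended on which cells entered the sums.

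**Figure D2:**
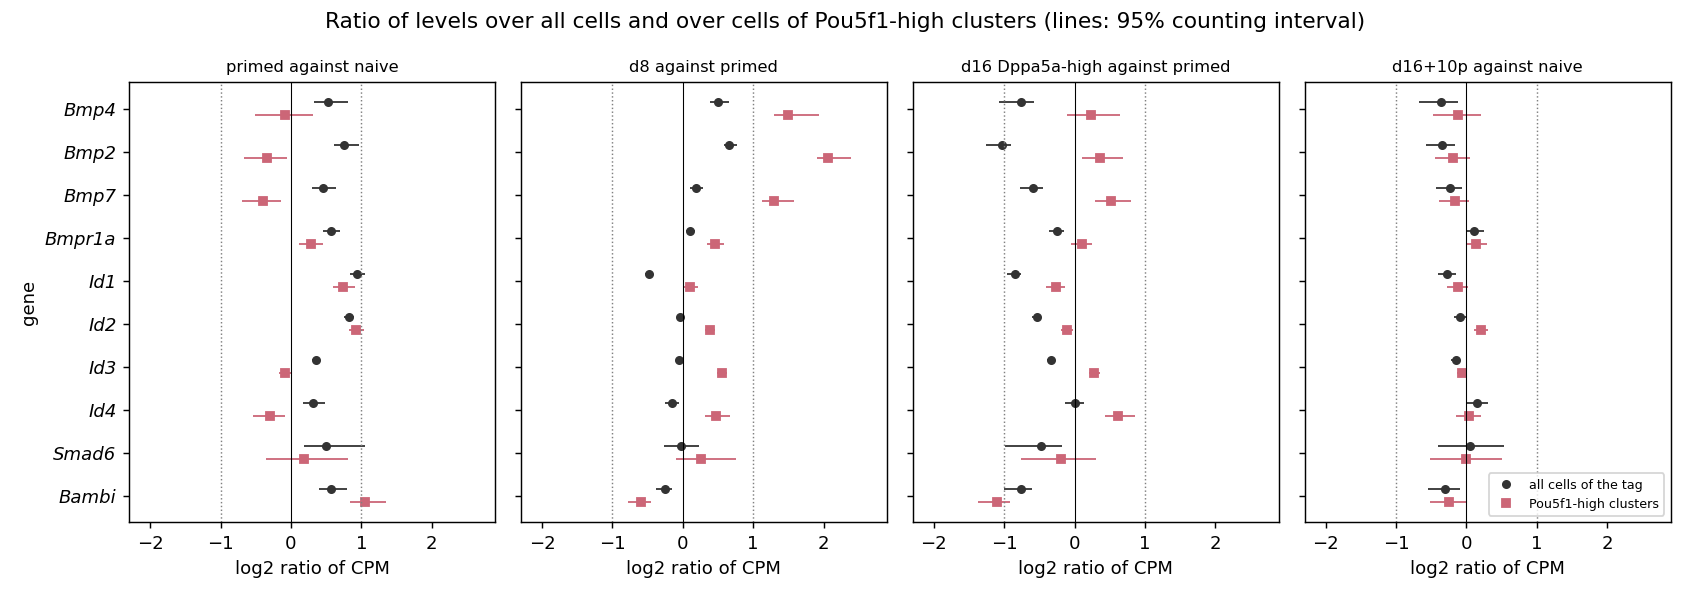
Log2 ratio of levels (x axis, with 1 CPM added) of the 10 genes (y axis) in 4 comparisons; circles use all cells of a tag and squares replace the primed, naive and d16+10p cells by those in Pou5f1-high clusters, with 95% counting intervals and dotted lines at 2-fold. The intervals are those of the ratio without the added 1 CPM. For d8 against primed, Bmp2 moves from 0.66 over all cells to 2.06, and d16+10p against naive stays within 2-fold for every gene by either choice.

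The third comparison set the Dppa5a-high against the Dppa5a-low cells of d16. All 9 members tested were lower in the Dppa5a-high cells beyond counting error, as were 5107 of all 11348 genes tested. Of the 9 members, 7 were called lower, against a background of 16.6%. None was called higher (background 11.2%). The median log2 ratio was -1.22 for the members and -0.03 over all genes tested. Id1 differed most, at 58.0 against 330 CPM, a log2 ratio of -2.49 (-2.60 to -2.43) or 5.70-fold. Id2 followed at -2.15, Id4 at -1.92 and Id3 at -1.62. Bmp2 (-1.22), Bmpr1a (-1.11) and Bmp4 (-1.09) were called as well, and Bmp7 (-0.87) and Bambi (-0.81) were not. Without clusters 3 and 6, described further on, which held most d16 Dppa5a-low cells, 5 of the 9 were called lower. The share of all genes was not computed for this choice of cells, so this count has no background. Id1 was then at -1.54 and Id2 at -1.55, while Id3 (-0.83) and Bmpr1a (-0.63) were no longer called.

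The same pattern was seen per cell after each cell had been thinned to 5000 reads. A read of Id1 was found in 67.1% of d16 Dppa5a-low cells (65.2 to 69.0%) and in 18.7% of d16 Dppa5a-high cells, the value of naive cells being 18.7% as well. For Id2 the shares were 81.2% and 40.1%, for Id3 85.2% and 51.9% and for Id4 34.0% and 13.4%. Without thinning, the shares of Id1 were 76.6% in d16 Dppa5a-low, 37.6% in d16 Dppa5a-high and 46.2% in naive cells, at median depths of 8691, 14255 and 19551 reads. No cluster could be assumed to lack these genes, and the lowest thinned share of any cluster of at least 100 cells was 14.4% for Id1, 29.6% for Id2, 46.4% for Id3 and 7.82% for Id4. For Id1 and Id2 this was cluster 11, most of whose cells carried the naive tag.

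Reads of several Id genes were found in the same cells. All 4 Id genes had a read in 21.8% of thinned d16 Dppa5a-low cells, against 1.37% of d16 Dppa5a-high, 1.23% of naive, 3.86% of primed, 1.47% of d8 and 0.924% of d16+10p cells. Such shares rise with the share of each gene alone, and no expected value was computed for the 4 genes together. None of the 4 had a read in 2.71% of d16 Dppa5a-low and in 21.6% of d16 Dppa5a-high cells. Within the d16 Dppa5a-low cells, reads of Id1 and Id2 occurred together in 58.0% of cells, and the product of their shares was 54.5%.

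**Figure D3:**
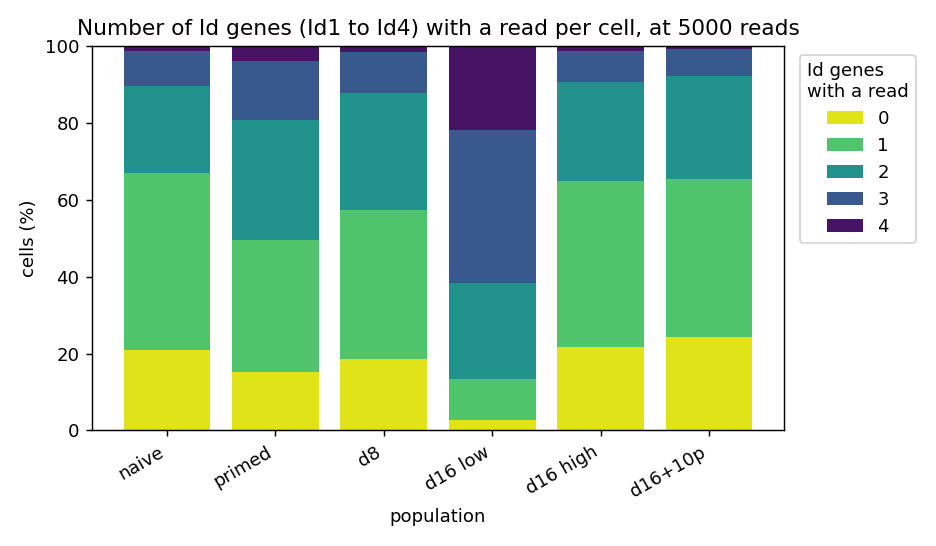
Percentage of cells (y axis) in which 0, 1, 2, 3 or 4 of the genes Id1 to Id4 had a read after thinning to 5000 reads, by population (x axis). The d16 Dppa5a-low column differs from the others, with 4 genes in 21.8% of cells and none in 2.71%.

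The d16 Dppa5a-low cells were next set against d8, a comparison added after the data had been seen. The 4 Id genes were called higher, that is, 4 of 9 members tested against a background of 8.96%, and no member was called lower (background 2.84%). Id1 was at 330 against 75.2 CPM (log2 ratio 2.12), Id4 at 144 against 33.3 CPM (2.08), Id2 at 682 against 216 CPM (1.66) and Id3 at 657 against 258 CPM (1.34). Bmpr1a was higher without being called (0.76). Of the 3 ligands among the members, Bmp4 (-0.17) and Bmp2 (-0.48) were lower and Bmp7 was at 0.08. Over all cells of these populations, Fabp7, a marker of neural progenitors, was at 487 against 36.5 CPM, and Col3a1, a marker of fibroblasts, at 1197 against 141 CPM.

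The reads were traced to clusters, made with the 10 genes and the other pathway genes left out of the genes used for clustering. Clusters 3 and 6 held 79.6% of the d16 Dppa5a-low cells and 71.8% of their reads of all genes, but 86.1% of their Id1, 82.2% of their Id2, 84.1% of their Id3 and 84.3% of their Id4 reads. Cluster 3 was neural progenitor-like (Fabp7, Sox1, Pax6, Hes5) and cluster 6 fibroblast-like (Col3a1, Col1a1, Dcn, Lum). Only 111 d8 cells lay in the pair, in which Id1 was at 288 CPM, against 396 CPM in the d16 Dppa5a-low cells there and 362 CPM in 349 primed-tagged cells there. High Id1 in these clusters was therefore found under all 3 tags. The paper regards primed-tagged cells without Oct4 as MEF feeders. Whether these primed-tagged cells were feeders or carried a wrong tag was not tested.

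Outside clusters 3 and 6, d16 Dppa5a-low cells still had more Id reads than d8 cells, with log2 ratios of 1.14 (1.08 to 1.23) for Id1, 0.53 for Id3 and 1.25 for Id4, and with Id2 at 432 against 214 CPM. Within the 5 clusters with at least 50 cells of both populations, the Id2 level was 1.13 to 3.60 times as high in d16 Dppa5a-low cells, with the least in cluster 6 (447 against 395 CPM), and that of Id1 1.39 to 2.65 times. Id3 in cluster 9 was at 316 against 274 CPM, and Id2 in cluster 2 at 288 against 153 CPM. In cluster 1, which was epithelial-like, Id1 was at 106 CPM in 52 d16 Dppa5a-low cells and 49.0 CPM in 2033 d8 cells, and Id2 at 318 and 92.0 CPM. In cluster 0, led by Lox and Ccl2, Id2 was at 448 CPM in 58 d16 Dppa5a-low and 124 CPM in 2167 d8 cells. In cluster 9, which was mesendoderm-like, Id2 was at 367 CPM in 65 and 117 CPM in 660 cells. Reads of the leading genes of cluster 3 moved with these values. Fabp7 was at 101 against 26.2 CPM in cluster 1, 254 against 31.2 CPM in cluster 0 and 114 against 25.7 CPM in cluster 9, and Rfx4 at 22.6 against 7.75 CPM in cluster 1 and 60.3 against 8.06 CPM in cluster 0. The part of such reads in the Id levels of these cells was not tested.

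The fourth comparison asked whether d16 Dppa5a-high cells differ from primed cells. Over all cells, 0 of 9 members were called higher (background 6.49%) and 1, Bmp2, was called lower (background 4.78%), at 17.4 against 36.7 CPM (log2 ratio -1.04, -1.25 to -0.90). Id1 (-0.85), Bambi (-0.76) and Bmp4 (-0.76) were lower without being called, and Id4 was within counting error. Against primed-tagged cells of Pou5f1-high clusters the sign for Bmp2 changed to 0.37 (0.11 to 0.68) and that for Bmp7 to 0.51, with the primed levels in the range of stray reads given above, while Bmp4 was within counting error. Bambi was then the member called lower, at 14.2 against 31.5 CPM (-1.10, -1.38 to -0.92), where 3.23% of all genes were. Id1 was modestly lower (-0.27), Id2 nearly level (-0.11), and Id3 (0.28) and Id4 (0.62) were higher. With primed and naive cells limited to Pou5f1-high clusters, Bambi was thus the only member past 2-fold, against naive as against d16 Dppa5a-high cells. Both of its intervals held 2-fold, as did that of Id2 in primed against naive cells (0.83 to 1.04). Over all cells of the tags, Bambi was called in neither comparison.

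The fifth comparison set the expanded cells against naive cells. Of 9 members tested, 0 were called higher in d16+10p (background 0.862%) and 0 lower (background 0.614%). The log2 ratios lay between -0.36 for Bmp4 and 0.14 for Id4. Of the 9, 7 were below naive beyond counting error, those of Bmpr1a and Id4 being within it. Of all 10093 genes tested, 2725 were below naive beyond counting error. Among cells of Pou5f1-high clusters none was called either, and Bmp4 (-0.12), Bmp2 (-0.19), Bmp7 (-0.17) and Id1 (-0.12) were within counting error. There, Id2 was slightly higher in d16+10p, at 99.6 against 86.5 CPM (0.20, 0.10 to 0.30). In both populations the levels of Id2, Bmp4, Bmp2 and Id1 were in the range of stray reads given above.

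The last comparison, of d16 Dppa5a-high with d16+10p cells, had 8 members tested, with 0 called higher (background 1.63%) and 0 lower (background 0.557%). Id2 (0.38, 0.31 to 0.46) and Id1 (0.36, 0.25 to 0.48) were the most above d16+10p, and all 3 ligands were within counting error. Against d16+10p cells of Pou5f1-high clusters, Bmp4 (0.28), Bmp2 (0.22) and Bmp7 (0.28) were above beyond counting error, Id1 was at 0.60 and Id2 at 0.61, and none was called. The d16+10p levels there of Bmp4 (0.381 of its level over all cells), Bmp2 (0.320), Id1 (0.372) and Id2 (0.396) were in the range of stray reads given above. With the mean of CPM per cell in place of summed reads, Id1 was at -0.12 and Id4 at -0.12, so that their direction depends on how cells are weighted. In the 1127 d16 Dppa5a-high cells of cluster 5, Id1 was at 40.8 CPM and Id2 at 115 CPM. In the 79 that lay in cluster 7 instead, the cluster of most d16+10p cells, Id1 was at 181 CPM and Id2 at 370 CPM, against 37.7 and 99.4 CPM in the 883 d16+10p cells beside them. Fabp7 was at 267 against 37.0 CPM and Col3a1 at 298 against 117 CPM in the same cells, and their part in these Id levels was not tested.

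Across clusters, the 3 ligands peaked in different places, and genes of different roles could peak in the same cluster. There were 17 clusters, 15 of them with at least 100 cells, and highest, next and lowest refer to these 15 here and below. The smaller cluster 15, of 77 cells, was above the highest of them for Bmp4 (62.4 CPM), Bmp7 (111 CPM), Smad6 (18.4 CPM) and Bambi (40.4 CPM). Its intervals overlapped theirs. Bmp4 was highest in cluster 10, which was notochord-like (T, Shh and Chrd, the last also on the pathway list), at 46.8 CPM, overlapping with cluster 9 at 43.1 CPM. Bmp2 was highest in cluster 9 (Cer1, Lhx1) at 232 CPM, and the next cluster, the smooth muscle-like cluster 4, was at 80.2 CPM. Bmp7 was highest in the fibroblast-like cluster 6, at 97.1 CPM. In the 4 Pou5f1-high clusters, the naive pluripotent-like clusters 5, 7 and 11 and the primed pluripotent-like cluster 12 (4 markers, beside 3 of neural progenitors), Bmp4 was between 8.21 and 8.93 CPM, Bmp2 between 13.2 and 17.4 CPM and Bmp7 between 14.8 and 22.4 CPM. These clusters were not alone at such levels: cluster 0 was at 6.78 CPM for Bmp4 and 12.1 CPM for Bmp7.

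The Id genes differed in which clusters they marked besides cluster 3. Id1 was at 387 CPM in cluster 3 and 383 CPM in cluster 6, whose intervals overlapped, and at 136 CPM in the next. Id3 was at 770 CPM in cluster 3 and 711 CPM in cluster 6. Id4 was at 204 CPM in cluster 3 and 176 CPM in the neuron-like cluster 13, but at 50.9 CPM in cluster 6. Id2 was highest in the macrophage-like cluster 8, at 1032 CPM, where Id1 (60.3 CPM), Id3 (184 CPM) and Id4 (27.0 CPM) were low, and was at 887 CPM in cluster 3. Most macrophage-like cells, 820 of 939, carried the d8 tag.

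Bmpr1a was highest in cluster 3 at 155 CPM and varied least after Bambi, by 4.27-fold over the 15 clusters. Smad6 was highest in cluster 10 at 13.6 CPM, and Bambi in cluster 9 at 39.4 CPM, overlapping with cluster 10 at 35.4 CPM. In the primed pluripotent-like cluster 12 Bambi was at 31.8 CPM, against 13.4 to 13.9 CPM in clusters 5, 7 and 11.

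Among clusters of at least 100 cells, the lowest of each member lay between 0.286 (Bmp2, cluster 12) and 0.564 (Bambi, cluster 0) of its level over all cells. Cluster 16, of 55 cells, was lower still for Bmp4 (0.126, from 2 reads) and Bmp7 (0.210, from 6 reads). A Pou5f1-high cluster was the lowest for Bmp2, Id1, Id2 and Id4. Most of these lowest levels lay in the range given above for genes read in clusters that should lack them, so that expression in the lowest clusters was not read from them.

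**Figure D4:**
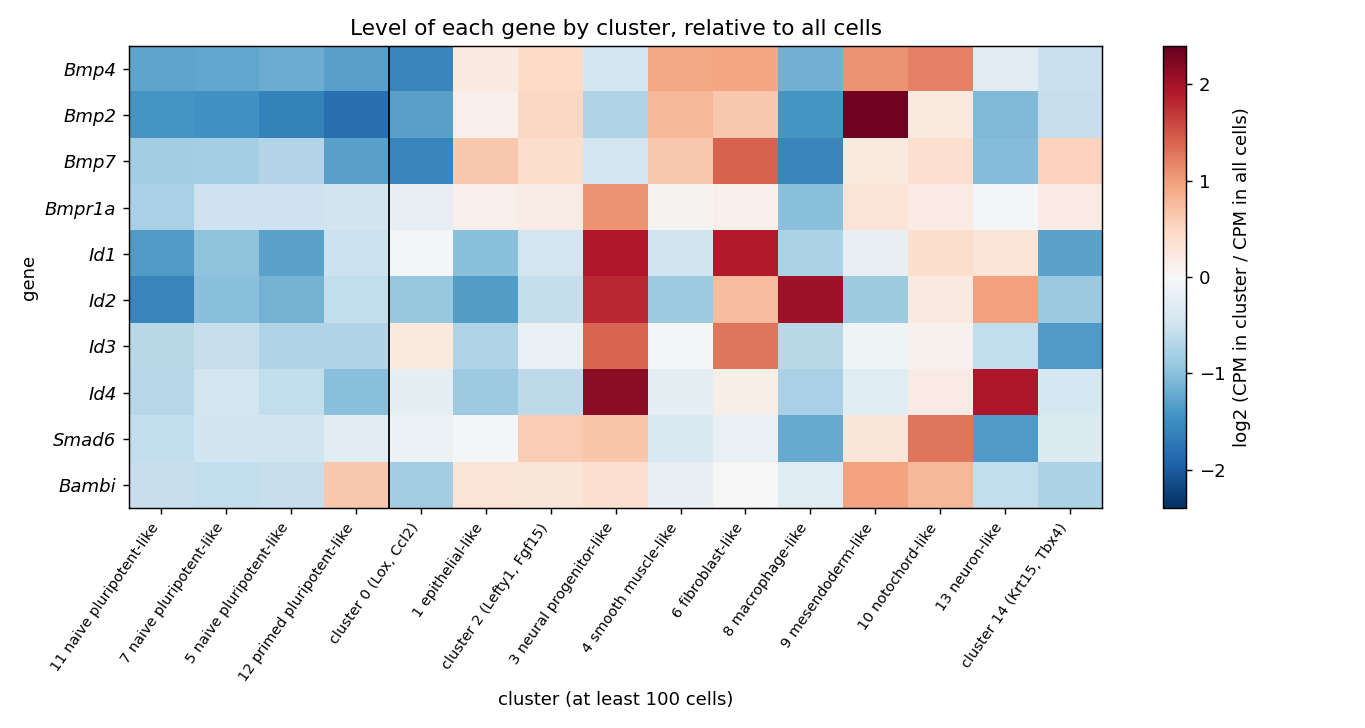
Log2 of the level in a cluster over the level in all cells (color) for the 10 genes (y axis) and the 15 clusters of at least 100 cells (x axis), with the 4 Pou5f1-high clusters left of the black line. Red cells show Bmp2 in cluster 9 (232 CPM), Id1 and Id3 in clusters 3 and 6, Id4 in clusters 3 and 13 and Id2 in clusters 3 and 8.

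The genes most like each member over the 15 clusters were listed by Pearson's r of log2(CPM + 1), among 12503 genes. These are descriptions, since the clusters share 1 library. Bmp4 was most like Bmf (r = 0.93), Bmp2 (0.91) and Rps6ka3 (0.90), and Bmp2 most like Foxq1 (0.97), Bmp4 and Frzb (0.90). Id1 was most like Igf2 (0.94), Gm49394 (0.94) and Olfml3 (0.94), and Id3 most like Lman1 (0.93), Boc (0.92) and Id1 (0.91). Id4 was most like Thsd7a (0.98), Tmtc2 (0.97) and Rsph9 (0.96). Id2 was most like Gde1 (0.90), Kdr (0.89) and Mid1ip1 (0.88). For Bmp7 the list was Smtn, Klhdc7a and Itm2a (0.92 to 0.87), for Bmpr1a Mipol1, Sulf2 and Srek1ip1 (all 0.91), for Smad6 Gm15421, Nap1l1 and Gm33051 (0.89 to 0.87), and for Bambi Car14, Stk26 and Mdfi (0.86 to 0.81). Among the members themselves, the ligands went together (0.76 to 0.91), Id1 and Id3 went together (0.91), and Bmp2 and Id2 did not (-0.07).

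The other genes of the pathway were taken from a list of 50. In primed against naive cells, 26 passed the filter on low levels, with 1 called higher and 1 lower (3.55% and 4.69% of all genes). Fst, which encodes the activin and BMP antagonist follistatin, was higher in primed, at 145 against 40.1 CPM. Gdf3, a ligand of the TGF-beta family with high levels in naive cells, was lower, at 5.70 against 73.9 CPM, a log2 ratio of -3.48.

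At d8 against primed, 3 of 28 tested were called higher and none lower (3.53% and 3.28% of all genes). Among those called were the secreted BMP antagonists Grem1, at 368 against 110 CPM, and Bmper, named after its values were seen. In d16 Dppa5a-low against d8 cells, 7 of 30 tested were called higher and 4 lower, where 8.96% and 2.84% of all genes were. Among those that were lower were the secreted antagonists Grem1 (113 against 368 CPM), Bmper and Cer1. Bmper and Cer1 were named after their values were seen. All 3 targets tested were higher: Msx1, a homeobox gene induced by BMP, at 58.8 against 8.28 CPM, and Atoh8 and Hey1, named after their values were seen. The ligands Bmp5 (81.0 against 13.2 CPM) and Bmp3 were higher too, the latter named after its values were seen.

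In d16 Dppa5a-high against d16 Dppa5a-low cells, 2 of 29 were called higher and 12 lower, where 11.2% and 16.6% of all genes were, and the median was -0.78 against -0.03 over all genes. The ligands Bmp5 (10.6 against 81.0 CPM) and Bmp3 (3.47 against 23.2 CPM) were lower. Named after their values were seen, all 3 targets tested, Msx1, Atoh8 and Hey1, and 2 of the 3 E proteins, Tcf4 (64.8 against 133 CPM) and Tcf12 (64.7 against 221 CPM), were lower as well. Gdf3 (52.3 against 5.11 CPM) and the coreceptor Eng (16.4 against 5.14 CPM) were higher. The same pair was called higher in d16 Dppa5a-high against primed cells, where Gdf3 was at 5.70 and Eng at 3.62 CPM, and Fst was called lower. In d16+10p against naive cells, 0 of 26 were called, and in d16 Dppa5a-high against d16+10p cells 0 of 27.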

How the data were processed

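Single-cell RNA-seq (BD Rhapsody, TAS-Seq) was done on 5 tagged populations pooled in 1 cDNA library. The authors deposited raw counts of reads, 1 value per gene and barcode. They trimmed with cutadapt 2.10, mapped with Bowtie2 2.3.4.1 to Ensembl transcripts of GRCm38.p6, counted reads per symbol, and removed low barcodes and doublets by tag. The design text plans 500 cells each for the naive and primed populations, 9000 each for d8 and d16 and 1000 for d16+10p, beside the 17720 in the table. No cell was removed here, also not as a doublet.

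Levels are reads of a gene summed over cells, per 1000000 reads (CPM), with exact Poisson intervals; shares have Clopper-Pearson intervals after thinning to 5000 reads, and ratios exact binomial intervals at 95%. Ratios and intervals were run on sums simulated with Poisson error only. Variation between cells and duplicate reads were not simulated, so the run cannot check the intervals for these. Clusters were made with Seurat 5.3.0 (R 4.3.3; 2000 variable genes, 56 components, 50 neighbours, resolution 0.8). A cluster was Pou5f1-high at 25% or more of the highest cluster's Pou5f1 level with a read in 75% of its cells. A cluster was given a name from at least 3 markers at 2-fold and 10 CPM.

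With 1 sample per group, no test was possible. The text names the 10 genes, the 2 pathway genes most changed in each direction, of which 1 is not reported here, and the 3 genes most like each member. Members and lists were chosen with earlier results of these data known.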

Additional observations from a re-analysis of the deposited data

How the results depend on the processing

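No paired analysis was possible because each population was a single tagged sample, and no sample could be left out for the same reason. The direction of the ligands and Id genes in comparisons with primed-tagged cells depended on whether cells outside Pou5f1-high clusters were kept. With Pou5f1-high clusters only, the members called higher were 1 in primed against naive and 3 in d8 against primed, the pathway genes called in d8 against primed were 9 higher and 1 lower, and Bmp2 in d16 Dppa5a-high against primed cells changed sign to 0.37. The alternative leaves out most primed-tagged cells by construction.

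In primed against naive, the members called higher were 2 after thinning (Bmp2 and Id1) and 1 (Id1) without the 5% of cells with the most reads, and the pathway genes called higher were 2 after thinning. In d16 Dppa5a-high against primed, the members called lower were 0 with a pseudocount of 10 CPM, 4 with the mean of CPM per cell, 2 after thinning, 3 without the 5% of cells with the most reads and 2 with a Dppa5a limit of 2000 CPM. The pathway genes called lower there were 6, 7, 5 and 4 under the last 4 of these, in that order, and 4 without a filter on low levels, and those called higher were 1 with a pseudocount of 10 CPM. The same pseudocount gave 1 pathway gene called higher in d16 Dppa5a-high against d16 Dppa5a-low and 2 lower in d16 Dppa5a-low against d8. The cause was not tested for these.

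Without the filter on low levels, 2 pathway genes were called higher and 2 lower in primed against naive. More genes enter by construction, and the background fell to 2.01% higher and 2.97% lower in primed against naive, 1.54% and 1.42% in d8 against primed, 5.95% and 8.61% in d16 Dppa5a-high against d16 Dppa5a-low, 4.29% and 2.56% in d16 Dppa5a-high against primed, 4.87% and 1.26% in d16 Dppa5a-low against d8, 0.516% higher in d16+10p against naive and 0.305% lower in d16 Dppa5a-high against d16+10p. Of 620 alternative log2 ratios of the members, 436 stayed within the counting error of the main value, 183 moved and 1 called ratio changed sign. In d16 Dppa5a-high against d16 Dppa5a-low cells, Id1 lay between -2.76 and -2.32 under the other scalings, cell filters, pseudocount and Dppa5a limits tried, and at -1.54 without clusters 3 and 6. Without cluster 8, Id2 in d8 against primed cells of Pou5f1-high clusters went from 0.39 to -0.31.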
